A study of Mus musculus with 14 samples.

Results

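The simple epithelial keratins Krt7, Krt8, Krt18 and Krt19 and the trophectoderm genes Plet1, Cdx2, Elf5, Gata3 and Tfap2c were followed through the RNA-seq libraries of a study of the transcription factor subunit TAF9B in mouse embryonic stem (ES) cells and newborn tissue. These 9 genes, of 23152 loci in the tables, were chosen by symbol because Krt8, Krt18 and Plet1 stood higher at embryoid body (EB) day 6, and Krt7 at day 2, in the library labelled KO. The values of those 2 days are therefore given as a description. ES cells of the JM8 clone, labelled wild type (WT), and of the Taf9b_BG10 clone, labelled TAF9B -/- (KO), were both of C57BL/6 background, and each was a single clone. A LacZ-Neo cassette takes the place of the coding exons of Taf9b in the KO cells, which are male and carry the gene on the X chromosome. Both clones were grown on feeder layers of mouse embryonic fibroblasts and were turned into EBs enriched in motor neurons with retinoic acid and SAG, an agonist of smoothened. RNA was taken as ES cells and on EB days 2, 4 and 6. Lumbar spinal column of newborn C57BL/6 littermates, labelled WT and KO, and newborn WT spinal cord were also sequenced, which made 11 RNA-seq libraries, with 1 library for each condition. No error between replicates can therefore be given for any value, and no test of a condition was made. TAF9B and RNA polymerase II (POL2) were mapped by ChIP-seq in WT EBs of another ES line, HBG3, at day 8.

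Keratins are intermediate filament proteins that assemble from a type I and a type II partner. Krt8 and Krt7 are type II and Krt18 and Krt19 type I, and the Krt8/Krt18 pair is the first to appear in the embryo, in the trophectoderm, the outer epithelium of the blastocyst that goes on to form the placenta. Cdx2, Gata3, Tfap2c and Elf5 encode transcription factors of the trophectoderm and its trophoblast descendants, and Plet1 (placenta-expressed transcript 1) encodes a surface protein found there. Krt8, Krt18, Krt7 and Krt19 also mark simple epithelia of later tissues, and Gata3 and Tfap2c are used by other lineages as well, Gata3 among them in interneurons of the spinal cord.

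The labels went against the targeted gene in culture. Taf9b was listed at 0.537 FPKM (a fragment count corrected for transcript length and library size) for ES cells labelled WT against 3.06 FPKM for those labelled KO, at 0.516 and 4.08 FPKM at EB day 2, at 1.96 and 4.27 FPKM at EB day 4 and at 1.37 and 4.01 FPKM at EB day 6. In the spinal column it was lower in the library labelled KO (3.31 against 6.65 FPKM). The tables give 1 value over the whole gene, so fragments from outside the replaced exons cannot be told apart from fragments within them. Libraries are therefore called by their labels throughout. Other genes also differed between the labels at day 6, where the summed level of 5 neuron genes was 785 FPKM labelled WT and 107 labelled KO, and Pou5f1, the central pluripotency factor, stood at 198 and 543 FPKM. Between 11685 and 13645 loci were above 1 FPKM in a library. The number of reads behind a value is unknown. Ratios of the library labelled KO to that labelled WT were binned for loci under 0.05 FPKM in both. The commonest ratio was 1.27 for ES cells, 1.17 for EB day 2, 0.906 for EB day 4 and 0.706 for EB day 6. Its bin held 93 of 1153, 85 of 891, 77 of 1572 and 64 of 724 loci. If such values step with whole reads, the ratio is how much more or less 1 read was worth, which was not tested. Each stage was normalized in its own table, and the ES cell library labelled WT, present in 2 tables, differed between them by a factor of 1.09 at the median of 11879 loci. Levels set side by side across stages carry this scale.

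Sequence before the annotated start was read for Krt8, Krt18, Krt7 and Plet1, the genes that led the choice and that stood higher together. The 250 bases come from the RefSeq promoter table (build GRCm38.p6), which held 7 of the 9 genes and had no entry for Krt19 and Tfap2c. Capitals mark the letters TATAA (the core of the TATA box), GCCNNNGGC (the site type bound by AP-2 proteins, of which Tfap2c encodes one) or AGATAA (a site type bound by GATA factors), each searched on both strands. The windows are chr15:102004343-102004592 on the minus strand for Krt8, chr15:102027966-102028215 on the plus strand for Krt18, chr15:101412153-101412402 on the plus strand for Krt7 and chr9:50494275-50494524 on the plus strand for Plet1.
Krt8: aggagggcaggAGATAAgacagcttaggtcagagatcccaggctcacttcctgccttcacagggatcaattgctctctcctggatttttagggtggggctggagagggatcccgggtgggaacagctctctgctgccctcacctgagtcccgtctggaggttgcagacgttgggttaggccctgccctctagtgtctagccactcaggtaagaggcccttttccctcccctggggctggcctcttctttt
Krt18: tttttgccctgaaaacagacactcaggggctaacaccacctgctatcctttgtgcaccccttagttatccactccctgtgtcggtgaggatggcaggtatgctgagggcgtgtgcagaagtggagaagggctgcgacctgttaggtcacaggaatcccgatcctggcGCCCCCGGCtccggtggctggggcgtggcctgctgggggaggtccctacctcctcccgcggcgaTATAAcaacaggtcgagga
Krt7: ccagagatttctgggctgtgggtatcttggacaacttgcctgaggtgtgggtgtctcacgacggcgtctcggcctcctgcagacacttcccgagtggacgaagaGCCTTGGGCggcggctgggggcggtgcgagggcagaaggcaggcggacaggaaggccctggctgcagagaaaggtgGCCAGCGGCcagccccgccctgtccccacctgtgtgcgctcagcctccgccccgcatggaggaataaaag
Plet1: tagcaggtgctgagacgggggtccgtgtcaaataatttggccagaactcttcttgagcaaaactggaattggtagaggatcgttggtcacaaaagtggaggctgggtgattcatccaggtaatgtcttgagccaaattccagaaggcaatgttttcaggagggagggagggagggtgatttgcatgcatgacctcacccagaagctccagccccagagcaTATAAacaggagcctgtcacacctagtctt
Krt18 and Plet1 held TATAA on the plus strand, 19 to 15 and 30 to 26 bases before the start, and 22.8% of 32851 promoter windows of this length held it. GCCNNNGGC was found at 2 places in Krt7, at 1 in Krt18, at 1 in Cdx2 and at 3 in Gata3, against 13.7% of all windows. The Krt7 and Gata3 windows were also the richest in G and C of the windows read (66.0% and 70.0%), and the others lay between 50% and 62.8%. AGATAA was found in Krt8 alone, 239 to 234 bases before the start, and in 9.99% of all windows. No motif of the 3 was found in either Elf5 window. These matches describe the letters of the windows and show no binding.

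Krt8 and Krt18 were the most abundant of the 9 genes in the cultured libraries. Krt8 (mm9, chr15:101827142-101834773, minus strand) stood at 80.1 FPKM in ES cells labelled WT, 32.3 at EB day 2, 12.5 at day 4 and 47.2 at day 6, and at 87.9, 67.0, 106.8 and 440.7 FPKM in the libraries labelled KO. The level labelled WT was lowest at day 4, 6.43-fold under ES cells, while the level labelled KO at day 4 was above that of ES cells and at day 6 was 5.01-fold above it. Krt18 (chr15:101858647-101862457, plus strand, 23874 bp from Krt8) stood at 68.5, 57.3, 29.8 and 60.4 FPKM in the libraries labelled WT and at 87.6, 85.3, 128 and 484 FPKM in those labelled KO. At day 6 in the library labelled KO, Krt18 ranked 201st and Krt8 219th of 23152 loci by FPKM, against 1632nd and 2091st in the library labelled WT. A processed copy of Krt8 exists in the mouse genome, and how reads shared with it were counted is not given in the sources used here.

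**Figure D1:**
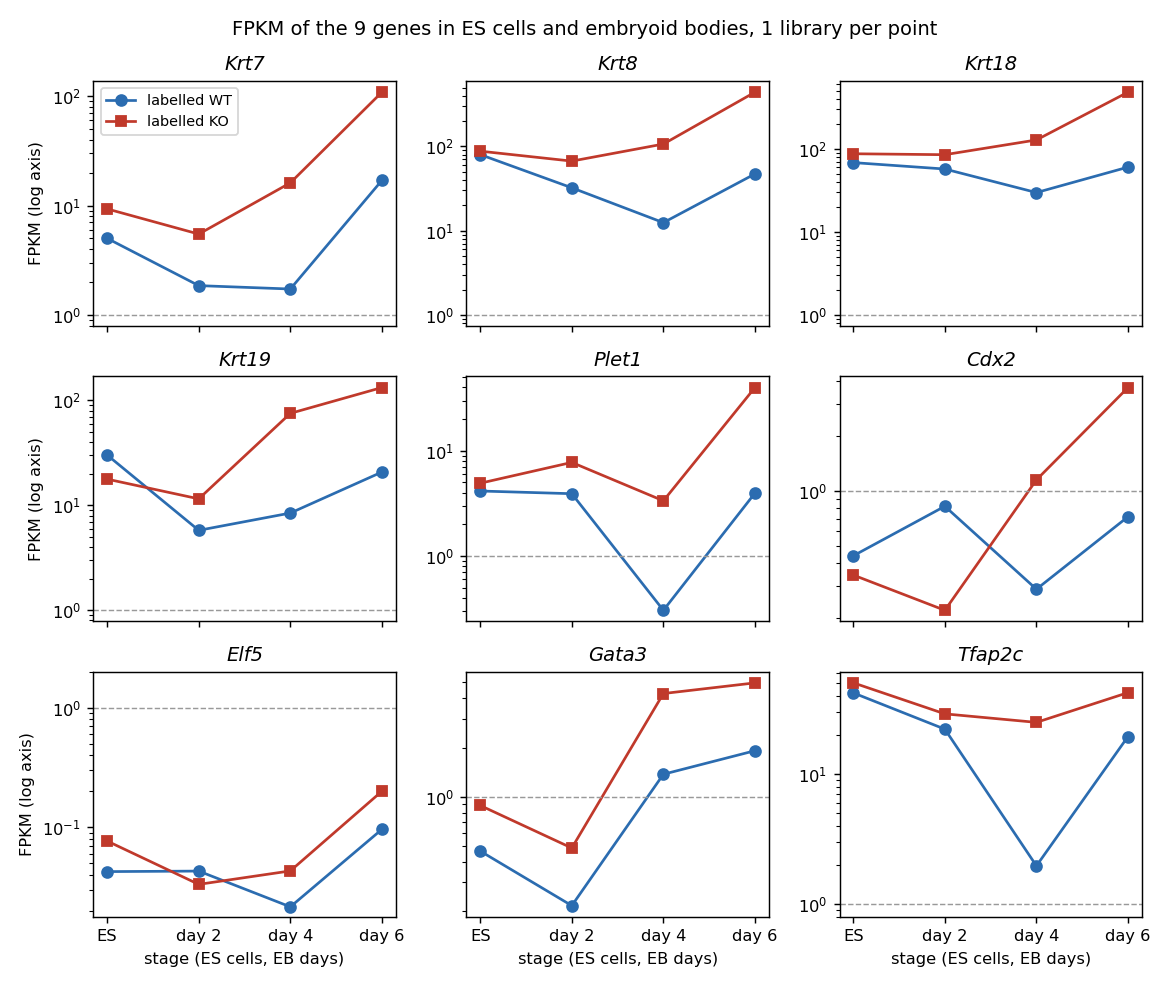
FPKM (log axis) of each of the 9 genes in ES cells and at EB days 2, 4 and 6, with circles for libraries labelled WT, squares for libraries labelled KO and a dashed line at 1 FPKM. Each point is 1 library. In the libraries labelled WT, 7 of the 9 genes are lowest at day 4 and Krt19 and Gata3 at day 2.

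Krt7 and Krt19, the other partners of the simple epithelial pair, were lower in level and differed from each other in ES cells. Krt7 (chr15:101242834-101258237) stood at 5.01, 1.85, 1.73 and 17.0 FPKM in the libraries labelled WT and at 9.31, 5.49, 16.1 and 108.7 FPKM in those labelled KO, from ES cells to day 6. It was the keratin with the widest range in the libraries labelled KO (19.8-fold from day 2 to day 6). Krt19 (chr11:100002126-100007233), a keratin that lacks most of the tail domain, stood at 30.2, 5.78, 8.45 and 20.8 FPKM in the libraries labelled WT and at 17.8, 11.5, 75.3 and 132.8 FPKM in those labelled KO. In ES cells it was the only keratin of the 4 with the higher value in the library labelled WT, and from day 2 on the order was the opposite.

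The balance of the partners differed less between the cultured libraries than their levels did. Krt8 over Krt18, as a ratio of FPKM levels, was 1.17, 0.563, 0.418 and 0.781 in the libraries labelled WT and 1.004, 0.785, 0.831 and 0.911 in those labelled KO. The ratio was thus lowest at day 4 in the libraries labelled WT, where Krt8 was further below its ES cell level than Krt18 was. The summed type II level (Krt7 and Krt8) over the summed type I level (Krt18 and Krt19) ran, over the cultured libraries, from 0.371 at day 4 labelled WT to 0.923 in ES cells labelled KO. All 4 keratins together came to 145 FPKM at day 6 labelled WT and to 1166 FPKM labelled KO.

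**Figure D2:**
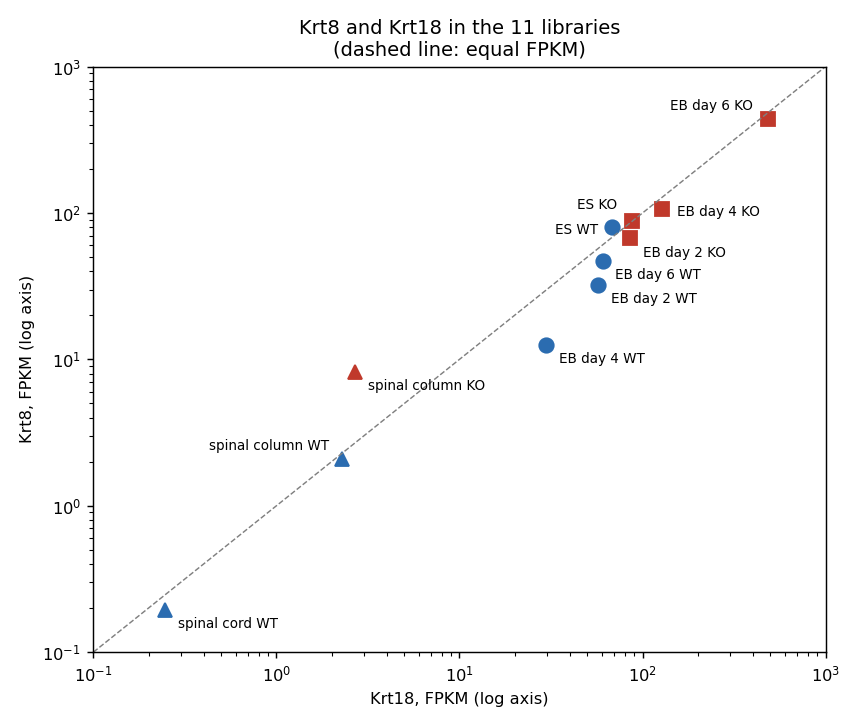
Krt8 against Krt18, both in FPKM on log axes, in the 11 libraries, with circles for cultured libraries labelled WT, squares for cultured libraries labelled KO, triangles for tissues and a dashed line of equal FPKM. The cultured libraries lie within a ratio of 0.418 to 1.17, and the spinal column library labelled KO lies above the line, at 3.06.

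Plet1 was lower in level than Krt8 and Krt18, and its course differed from theirs in the libraries labelled KO. The table gives it a locus of chr9:50296904-50313744, which it shares with the antisense transcript Plet1os, and the Plet1 start lies at position 50302630. It stood at 4.14, 3.90, 0.304 and 3.96 FPKM in the libraries labelled WT and at 4.91, 7.74, 3.34 and 39.9 FPKM in those labelled KO. Both sets of libraries had their lowest value at day 4. In those labelled KO, Plet1 was 1.58-fold higher from ES cells to day 2 and 2.32-fold lower from day 2 to day 4, and each of the 4 keratins had the opposite direction at both steps. Plet1os reached 0.125 FPKM at most in culture. Without a stated strand setting, reads from the overlap of Plet1 and Plet1os cannot be told apart.

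Of the transcription factor genes, Tfap2c was well expressed from the ES cells on, Gata3 and Cdx2 lay between 0.216 and 4.97 FPKM and Elf5 was close to 0. Tfap2c (chr2:172375093-172384121), which encodes AP-2γ and is also known from the germ line, stood at 42.1, 22.1, 1.97 and 19.4 FPKM in the libraries labelled WT and at 50.2, 29.0, 24.9 and 42.2 FPKM in those labelled KO. Its WT-labelled range was the widest of the 9 genes, 21.3-fold between ES cells and day 4, and its KO-labelled range was 2.01-fold. Within each label no EB value was above that of ES cells.

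Gata3 (chr2:9778705-9800227), a zinc finger factor, stood at 0.466, 0.216, 1.37 and 1.91 FPKM in the libraries labelled WT and at 0.885, 0.486, 4.28 and 4.97 FPKM in those labelled KO. Under both labels its values at days 4 and 6 were above those of ES cells and of day 2. Cdx2 (chr5:148112476-148118825), a homeodomain factor needed for the trophectoderm, stood at 0.440, 0.823, 0.289 and 0.721 FPKM in the libraries labelled WT and at 0.345, 0.221, 1.15 and 3.68 FPKM in those labelled KO. No library labelled WT reached 1 FPKM for Cdx2. Elf5 (chr2:103252255-103291145), a factor of trophoblast stem cells, stayed between 0.0217 and 0.201 FPKM in all 8 cultured libraries, with the highest value at day 6 labelled KO. Its values are too low to compare.

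In ES cells no gene passed 2-fold between the labels, but Krt7, Krt18 and Krt19 lay outside the range that holds most loci. A locus is counted here as higher or lower when the library labelled KO differed from that labelled WT by more than 2-fold and at least 1 of them was above 1 FPKM. A gene above 1 FPKM in 1 library only can thus be counted only toward that library, and the number above 1 FPKM in both is given where it matters. None of the 9 genes was counted in ES cells, where 0.541% of 12019 loci were higher and 0.591% lower. Of the 6 genes above 1 FPKM, Krt7 was the nearest, 1.86-fold higher (log2 ratio 0.89), and ranked 74th of those loci. Krt19 was at the other end, with a log2 ratio of -0.76 and the rank 11909. Krt8, Krt18, Plet1 and Tfap2c had log2 ratios of 0.13, 0.35, 0.25 and 0.26. The median over all loci was 0.020, and the 5th and 95th percentiles were -0.30 and 0.30. Gata3 was 1.90-fold higher with both values under 1 FPKM.

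EB day 4, which the choice did not use, gave 8 of the 9 genes as higher in the library labelled KO, where 12.1% of 12543 loci were higher, and none as lower, where 4.43% were. The log2 ratios were 3.66 for Tfap2c, 3.46 for Plet1, 3.22 for Krt7, 3.16 for Krt19, 3.10 for Krt8, 2.11 for Krt18, 1.99 for Cdx2 and 1.64 for Gata3. Tfap2c ranked 91st and Plet1 110th among the loci, and Gata3, the last of the 8, ranked 778th. Plet1 and Cdx2 were above 1 FPKM in the library labelled KO only, and the other 6 were above it in both. With a pseudocount of 1 FPKM the log2 ratio of Plet1 was 1.73 and that of Cdx2 0.74, which is no longer past 2-fold. The median log2 ratio of the 8 genes above 1 FPKM in either library was 3.13, and that of all loci under the same filter was -0.030. The day 4 libraries came from the same 2 clones as those of days 2 and 6, so this day is no independent set of samples.

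For days 2 and 6, which include the contrasts used in the choice, the values are a description. At day 2 Krt7 (2.96-fold) and Krt8 (2.07-fold) were counted as higher and no gene as lower, where 1.19% of 11951 loci were higher and 1.40% lower. Krt19 and Plet1 lay just under the 2-fold line, at 1.995-fold and 1.98-fold, Krt18 was at 1.49-fold and Tfap2c at 1.31-fold. Cdx2 was lower in the library labelled KO (log2 ratio -1.89) with both values under 1 FPKM. At day 6 the same 8 genes as at day 4 were counted as higher, 7 of them (all but Cdx2) above 1 FPKM in both libraries, where 10.5% of 12985 loci were higher and 9.93% lower. The folds there were 10.1 for Plet1, 9.34 for Krt8, 8.00 for Krt18, 6.40 for Krt7, 6.39 for Krt19, 5.11 for Cdx2, 2.60 for Gata3 and 2.17 for Tfap2c. With a pseudocount of 1 FPKM the log2 ratio of Cdx2 was 1.44 in place of 2.35. Tfap2c, with the highest ratio of the 9 genes at day 4, thus had the lowest of the 8 counted at day 6. In bulk libraries, more cells that express a gene and more RNA per cell cannot be told apart.

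**Figure D3:**
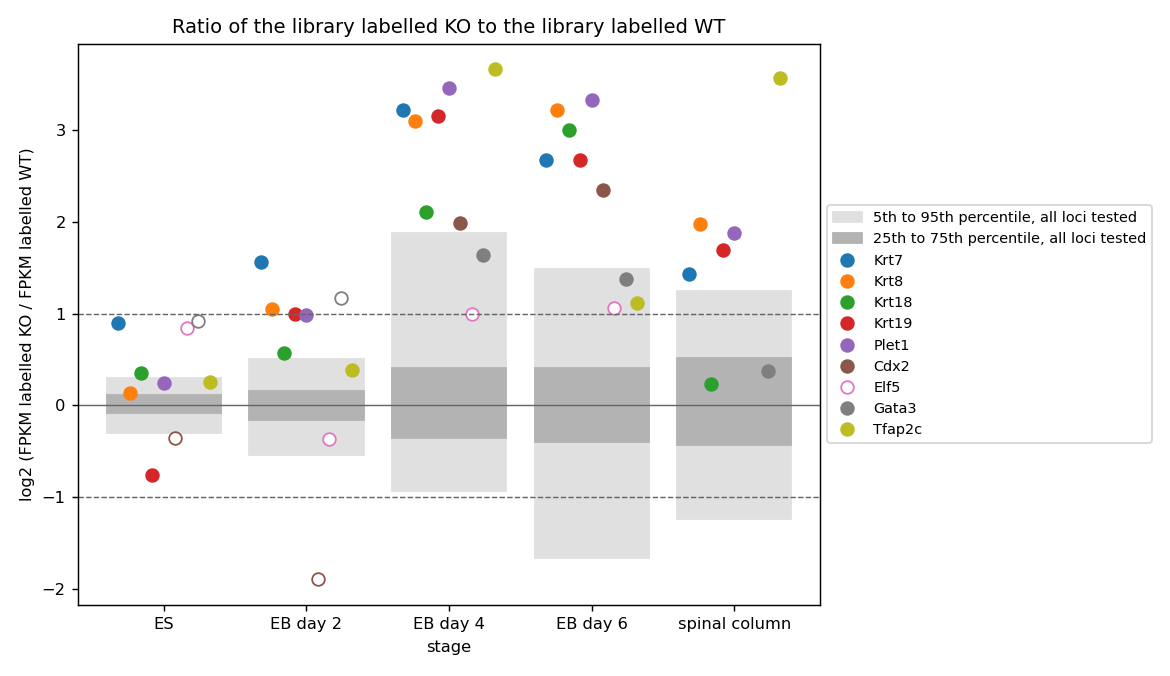
Log2 ratio of FPKM in the library labelled KO over that labelled WT for each gene at 5 stages, with filled points where either library is above 1 FPKM, open points where neither is, grey boxes for all loci tested and dashed lines at 2-fold. At day 4 the filled points lie between 1.64 and 3.66, and in ES cells between -0.76 and 0.89.

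The course of differentiation was followed from step to step within each label, with no test of the difference between the labels. In the libraries labelled WT, no gene was past 2-fold higher from ES cells to day 2, where 5.28% of loci were, and 3 were lower (Krt7, Krt8 and Krt19, by 2.70-fold, 2.48-fold and 5.22-fold), where 7.96% were. From day 2 to day 4 Gata3 was higher (6.36-fold), where 15.7% of loci were, and Krt8, Plet1 and Tfap2c were lower (2.59-fold, 12.8-fold and 11.2-fold), where 13.8% were, and Gata3 and Plet1 were each above 1 FPKM in 1 of the 2 libraries only. With a pseudocount of 1 FPKM the log2 ratio of Gata3 over this step was 0.96 in place of 2.67. From day 4 to day 6 the direction turned, with 6 genes higher (Krt7, Krt8, Krt18, Krt19, Plet1 and Tfap2c), where 17.0% of loci were, and none lower, where 9.95% were. Plet1 was above 1 FPKM at day 6 only and could be counted as higher only, and the other 5 were above it on both days. Tfap2c was 9.86-fold, Krt7 9.84-fold and Plet1 13-fold higher over this step, and Krt18 2.03-fold. The log2 ratio of Plet1 with a pseudocount of 1 FPKM was 1.93 in place of 3.70 over this step and -1.91 in place of -3.68 over the one before. Krt18 was no longer past 2-fold with a pseudocount (log2 ratio 0.99 in place of 1.02) or with ratios centred on the median locus (0.92), and the count was then 5.

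In the libraries labelled KO, no gene passed 2-fold from ES cells to day 2 in either direction, where 6.01% of loci were higher and 8.38% lower. Krt7, Krt8 and Krt19 had the same direction as under the WT label, 1.70-fold, 1.31-fold and 1.54-fold lower. From day 2 to day 4 Krt7, Krt19, Cdx2 and Gata3 were higher (2.94-fold, 6.53-fold, 5.19-fold and 8.80-fold), where 15.4% of loci were, and Plet1 was lower (2.32-fold), where 7.72% were, and Cdx2 and Gata3 were above 1 FPKM at day 4 only. With a pseudocount of 1 FPKM the log2 ratio of Cdx2 over this step was 0.81 in place of 2.38, and that of Gata3 1.83 in place of 3.14. Krt8 and Krt18 were 1.59-fold and 1.51-fold higher over the same step. From day 4 to day 6 Krt7, Krt8, Krt18, Plet1 and Cdx2 were higher, where 12.4% of loci were, with Plet1 at 11.9-fold, Krt7 at 6.74-fold and Krt8 at 4.13-fold, and none was lower, where 11.1% were. The last step was upward for each of the 8 genes above 1 FPKM under this label, as it was for the 7 above 1 FPKM under the WT label.

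Genes of ES cells and of feeder fibroblasts also differed between days and labels, and their course was that of the 9 genes only in part. From day 2 to day 4 in the libraries labelled KO, all 6 pluripotency genes and 6 of the 7 feeder genes were lower. Of the 8 of the 9 genes above 1 FPKM over that step, 6 were higher and 2 lower. Pou5f1 stood at 859, 829, 19.9 and 198 FPKM in the libraries labelled WT at ES, days 2, 4 and 6, and at 880, 987, 99.1 and 543 FPKM in those labelled KO. The 6 pluripotency genes together stood at 1575, 1212, 114 and 415 FPKM in those libraries and at 1544, 1312, 266 and 982 FPKM in those labelled KO. At day 6 Klf4 and Esrrb had the highest ratios of them (log2 1.99 and 1.69) and Zfp42 and Sox2 the lowest (0.35 and 0.39). All 6 were above 1 FPKM in both libraries there, and 4 were past 2-fold higher in the one labelled KO, where 10.5% of loci were. At day 4 it was 5 of 6 (4 of the 5 above 1 FPKM in both), where 12.1% were, with a median log2 ratio of 2.00. The 7 feeder genes, collagens and other genes of fibroblasts, summed to 373, 66.8, 5.2 and 51.4 FPKM labelled WT and to 406, 70.0, 34.6 and 133 FPKM labelled KO. All 7 were past 2-fold higher in the library labelled KO at day 4, where 12.1% of loci were, but only 2 were above 1 FPKM in both libraries and the other 5 could be counted as higher only. At day 6 all 7 were above 1 FPKM in both and 4 were higher, where 10.5% of loci were, with Col1a2 at log2 1.78 and Dcn at 1.69 and with Postn at 0.55 and Thy1 at 0.67. No gene of either list was at 0 in a cultured library. Their part in the values of the 9 genes was not tested.

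The spinal column and spinal cord had little of these genes. In spinal column labelled WT and KO, Krt8 stood at 2.09 and 8.24 FPKM, Krt18 at 2.28 and 2.69, Krt7 at 1.27 and 3.43 and Krt19 at 1.43 and 4.64. Plet1 stood at 0.602 and 2.22 FPKM, Tfap2c at 0.126 and 1.5, Gata3 at 1.34 and 1.74 and Elf5 at 0 and 0.331, and Cdx2 was listed at 0 in both. Krt7, Krt8, Krt19, Plet1 and Tfap2c were past 2-fold higher in the library labelled KO, where 9.07% of 14194 loci were, and none was lower, where 8.51% were. Krt18 was 1.18-fold and Gata3 1.30-fold higher. Plet1 and Tfap2c were above 1 FPKM in the library labelled KO only, so they could be counted as higher only. With a pseudocount of 1 FPKM the log2 ratio of Tfap2c was 1.15 in place of 3.57 and that of Krt7 0.96 in place of 1.43. Krt8 over Krt18 was 0.915 in the library labelled WT, within the range of the cultured libraries, and 3.06 in the one labelled KO.

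Keratins of the skin accompanied these values. In spinal column Krt1 stood at 1.04 FPKM labelled WT and 238 labelled KO, Krt10 at 3.60 and 352, Krt5 at 0.599 and 68.8 and Krt14 at 0.272 and 77.3. Of the 22 other keratin genes above 1 FPKM in either spinal column library, 18 were past 2-fold higher in the one labelled KO, where 9.07% of all loci were, and 2, Krt4 and Krt13, were lower, where 8.51% were, listed at 0 there against 1.71 and 1.92 FPKM. Only 5 of the 22 were above 1 FPKM in both libraries, 3 of them higher, and 15 of the 18 passed 1 FPKM in the library labelled KO alone and could be counted as higher only. The 49 other keratin genes summed to 17.4 FPKM labelled WT and 867 labelled KO. The 8 stratified epithelium genes, 4 of them keratins of this count, summed to 10.2 and 289 FPKM, and none was at 0. Of the 23 simple epithelium and desmosome genes, 13 of the 17 above 1 FPKM were past 2-fold higher, against the same 9.07% of all loci, but 12 of the 13 passed 1 FPKM in the library labelled KO alone, and of the 3 above 1 FPKM in both libraries 1 was higher. Their part in the spinal column ratios of the 9 genes was not tested.

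In newborn WT spinal cord Krt8 was listed at 0.194 FPKM, Krt18 at 0.247, Krt7 at 0.368, Krt19 at 0.920, Plet1 at 0.110, Tfap2c at 0.294, Gata3 at 0.671 and Elf5 at 0.115, and Cdx2 at 0. The 6 genes above 1 FPKM in the ES cell library of the same table were all past 2-fold lower, where 35.7% of loci were lower and 30.5% higher. All 6 were under 1 FPKM in spinal cord and passed the filter through the ES cell library alone, so they could be counted as lower only, and nothing is read from their count. Krt8 was 449.5-fold lower and Krt18 302-fold lower, and Krt7, with the smallest fold of the 6, was 14.8-fold lower. With a pseudocount of 1 FPKM the log2 ratio of Krt8 was -6.21 in place of -8.81, and that of Krt18 -5.92 in place of -8.24. The median log2 ratio of all loci in this comparison was -0.26. The 5 neuron genes summed to 1559 FPKM in spinal cord and to 704 and 449 FPKM in spinal column labelled WT and KO.

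**Figure D4:**
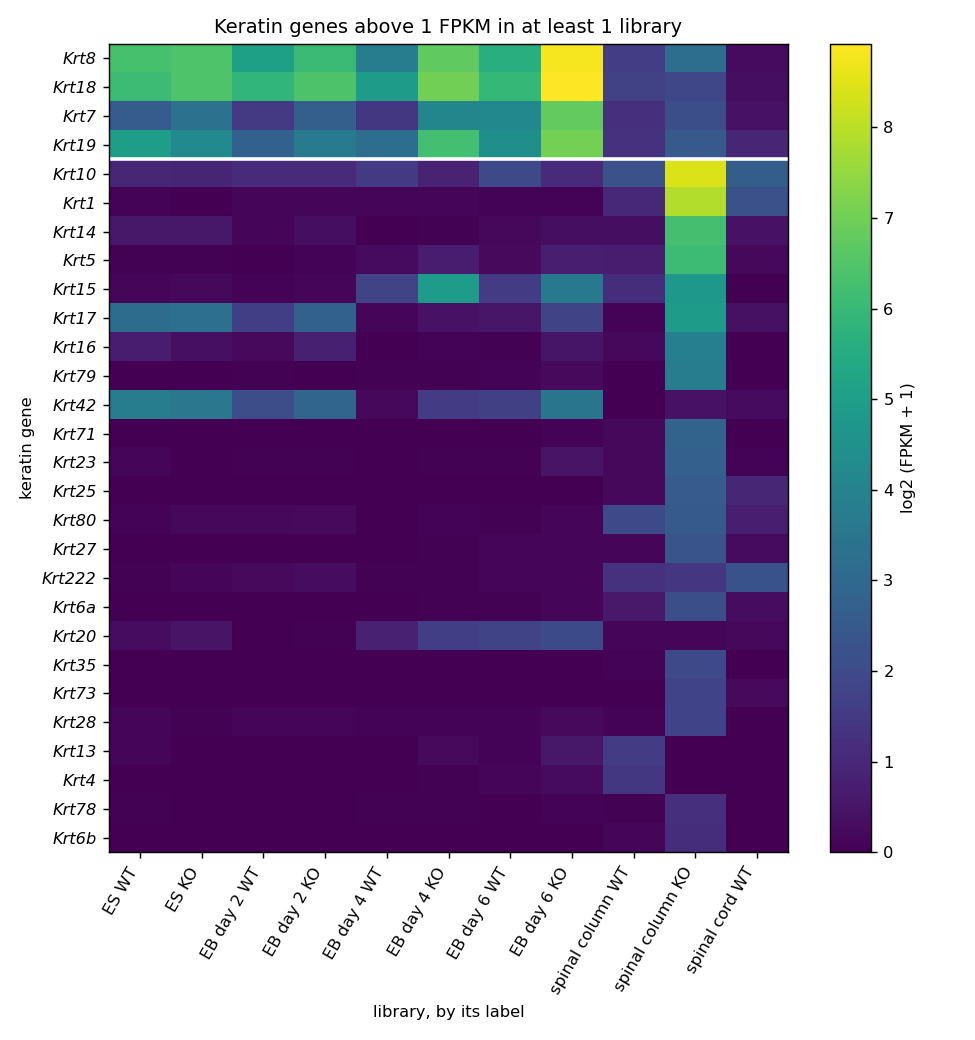
Log2 (FPKM + 1) of the 4 simple epithelial keratins (above the white line) and of the 24 other keratin genes that passed 1 FPKM in any of the 11 libraries, which are named by their labels. The simple keratins fill the cultured columns, and Krt10, Krt1, Krt14 and Krt5 stand out in the spinal column library labelled KO.

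Among keratins the simple epithelial set dominated the cultured libraries. The 4 genes held between 88.7% and 97.2% of all keratin FPKM there, the highest share at day 6 labelled KO, against 28.9% and 2.15% in spinal column labelled WT and KO. Only 5 of the 49 other keratin genes passed 1 FPKM in a cultured library (Krt10, Krt15, Krt17, Krt20 and Krt42). Krt42 stood at 2.20 and 10.1 FPKM at day 6 in the libraries labelled WT and KO, Krt15 at 1.93 and 11.2, Krt17 at 0.454 and 2.58, Krt20 at 2.56 and 3.02 and Krt10 at 2.91 and 1.15. At day 6 Krt15, Krt17 and Krt42 were thus past 2-fold higher with the simple keratins, where 10.5% of all loci were. Krt10 was past 2-fold lower, where 9.93% were. Krt17 was above 1 FPKM in the library labelled KO only and could be counted as higher only. Krt15, a basal cell keratin, also had its highest cultured value at day 4 labelled KO (29.6 FPKM, against 2.52 labelled WT).

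The other cytoplasmic intermediate filament genes had a positive median ratio at day 4 and a negative one at day 6. Of 10 such genes, 9 were above 1 FPKM on each day. At day 4, 4 of them were past 2-fold higher in the library labelled KO, where 12.1% of all loci were. These were Prph, Nefl, Synm and Des, named after their values were seen. None was lower, where 4.43% were, and the median log2 ratio was 0.49. At day 6, 1 was higher, near the 10.5% of all loci, and 4 were lower, where 9.93% were, with a median of -0.66. At day 6 the neuronal filament genes Nefm (107 and 4.09 FPKM) and Ina (95.7 and 5.36 FPKM) had the lowest ratios, and Prph (16.7 and 33.8 FPKM), which encodes peripherin, and Nefh (1.38 and 1.74 FPKM) the highest. Vim, the mesenchymal vimentin gene chosen here after its values were seen, stood at 311 and 196 FPKM. At day 4, 4 of the 5 neuron genes were above 1 FPKM, with a median log2 ratio of 0.26. Of these 1 was past 2-fold lower, where 4.43% of loci were, and none higher, where 12.1% were. The 5 neuron genes, 3 of them above 1 FPKM in both libraries, were all past 2-fold lower in the library labelled KO at day 6, where 9.93% of loci were, summing to 785 and 107 FPKM, with Stmn2 and Map2 at log2 ratios of -1.51 and -3.42 and Snap25 and Elavl3 at -4.76 and -4.42.

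Other trophoblast genes stood higher in the library labelled KO with the 9 genes. Of 19 such genes, none of them among the 9, 13 of the 15 above 1 FPKM at day 4 were past 2-fold higher, where 12.1% of all loci were, and at day 6 it was 15 of 18, where 10.5% were. Of the 13, 7 passed 1 FPKM in the library labelled KO alone and could be counted as higher only. Of those above 1 FPKM in both libraries, 6 of 8 were higher at day 4 and 13 of 16 at day 6, and none was lower. Their median log2 ratio was 3.21 at day 4 and 1.46 at day 6, against -0.030 and -0.0031 for all loci. In ES cells 1 of 13 was past 2-fold higher, where 0.541% of loci were, and at day 2 it was 6 of 13 (4 of the 11 above 1 FPKM in both), where 1.19% were. Tpbpa, a gene of the spongiotrophoblast, stood at 0.0782 FPKM labelled WT and 8.70 labelled KO at day 6, and Hand1, a factor of giant cells, at 1.82 and 14.5. At the low end were Fgfr2, the receptor of the factor that maintains trophoblast stem cells (6.70 and 5.59 FPKM), and Esx1, a homeobox gene of the labyrinth (22.1 and 35.9 FPKM). Prl3d1, a placental lactogen gene of giant cells, stayed at or under 0.0163 FPKM in culture.

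Epithelial junction genes showed the same direction with smaller ratios. Of 23 simple epithelium and desmosome genes, 18 of 22 above 1 FPKM were past 2-fold higher at day 4, where 12.1% of all loci were, and 17 of 23 at day 6, where 10.5% were. Of those above 1 FPKM in both libraries, 16 of 20 were higher at day 4 and 14 of 19 at day 6, and none was lower on either day. Their median log2 ratio was 2.00 at day 4 and 1.31 at day 6, and 0.08 in ES cells. Dsg2, a desmosomal cadherin (3.07 and 15.4 FPKM), was among the genes with the highest ratios at day 6, and Rab25 (1.78 and 2.42 FPKM) and Cldn3 (22.9 and 34.0 FPKM) had the lowest. Unlike Krt8 and Krt18, this list summed to more at day 2 (1140 and 1325 FPKM) than at day 6 (439 and 1159 FPKM) under both labels. Of the stratified epithelium genes, the 4 above 1 FPKM at day 6, 3 of them in both libraries, were past 2-fold higher, with Krt15 and Krt17 at log2 2.53 and 2.51, Perp, a desmosome protein gene, at 2.15 and the factor Grhl3 at 1.69. Krt14 and Krt5, which define the basal layer, stayed under 1 FPKM in culture.

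**Figure D5:**
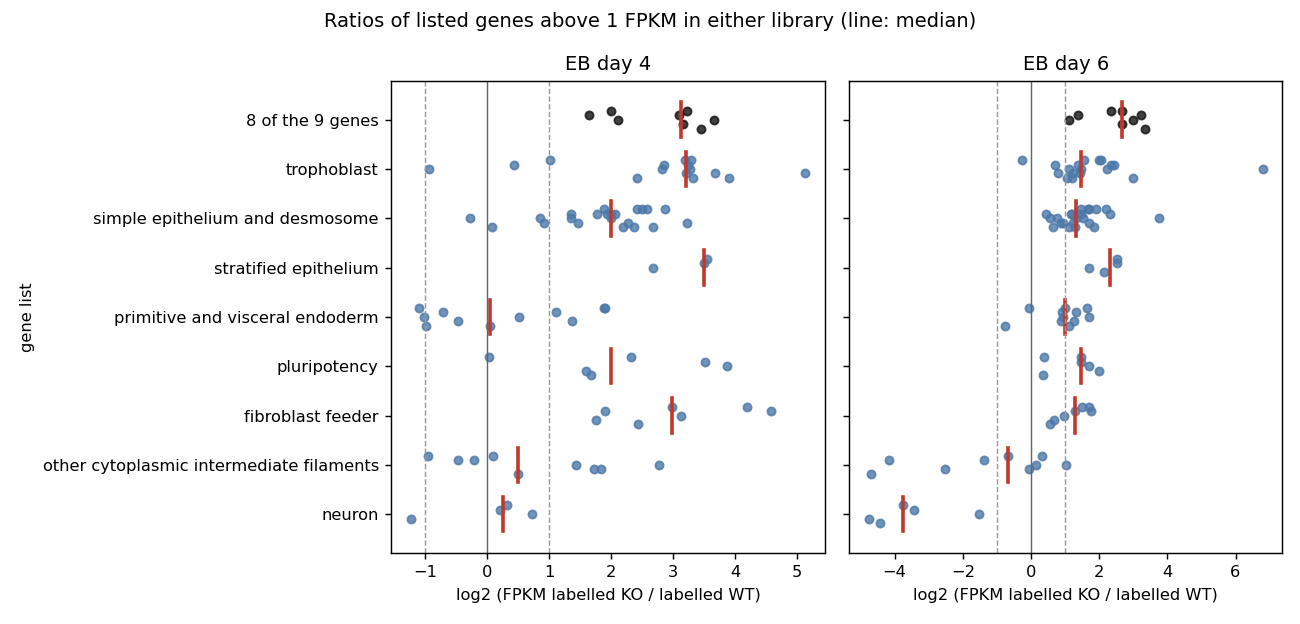
Log2 ratio of FPKM, labelled KO over labelled WT, at EB days 4 and 6 for 8 of the 9 genes and for the genes of 8 lists that were above 1 FPKM in either library; each point is a gene, red lines are medians and dashed lines mark 2-fold. The medians of the 8 genes are 3.13 and 2.68, those of the trophoblast list 3.21 and 1.46, and that of the neuron list at day 6 is -3.76.

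The genes most like Krt8 over the 8 cultured libraries, by Pearson correlation of log2(FPKM + 1) among 8359 genes that reached 10 FPKM, were Dyrk3 (0.988), Gipc2 (0.983), Myd88 (0.972), Pdia3 (0.967) and Krt18 (0.964). Dyrk3, a kinase gene, stood at 25 and 59.1 FPKM at day 6, and Gipc2 at 2.97 and 13.4 FPKM, labelled WT and KO. Pdia3, a disulfide isomerase gene of the endoplasmic reticulum, stood at 203 and 292 FPKM, a log2 ratio of 0.52 against 3.22 for Krt8, so genes alike in the shape of their course differed in the size of the ratio. Of the 9 genes, Krt18, Plet1 and Krt7 were most correlated with Krt8 (0.964, 0.909 and 0.882), and Gata3 least (0.562). These correlations rest on 8 libraries from 2 clones and are given with no test.

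Neighbouring genes did not share the levels of the simple keratins. Within 100 kb of Krt7, Krt8 or Krt18 on chromosome 15 lie 23 other loci, and the 14 keratin genes among them all stayed under 1 FPKM in every cultured library. The nearest neighbour of Krt7, Krt87 (3684 bp away), stood at 0.0124 and 0.0547 FPKM at day 6, and that of Krt8 besides Krt18, Krt78 (42424 bp away), at 0.0107 and 0.0505. On the far side of Krt18, the translation factor gene Eif4b (41747 bp away) stood at 150 and 169 FPKM, Tns2 at 1.65 and 3.56 FPKM and Spryd3 at 13.3 and 17.0 FPKM. Their log2 ratios were 0.17, 1.11 and 0.35, so Tns2 was past 2-fold higher, where 10.5% of all loci were.

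None of the 9 genes had a peak of TAF9B or POL2 within 500 bp of an annotated start in the day 8 EBs, where 20.6% of 21241 genes had a TAF9B peak and 33.6% a POL2 peak. Of the 11946 genes above 1 FPKM in the EB day 6 library labelled WT, as 7 of the 9 were, 31.6% had a TAF9B peak and 56.2% a POL2 peak. The peaks are from WT cells of another line, and no peaks of cells labelled KO were part of this comparison. Gata3 had the nearest TAF9B peak, chr2:9801315-9801512, 1186 bp from a start and with a score of 75.2, under the median of 83.3 over 10415 TAF9B peaks. Within 50 kb a TAF9B peak was found for Krt8, Krt18, Cdx2, Elf5 and Gata3, and a POL2 peak for Krt18, Plet1 and Elf5, while 56.4% of all genes had a TAF9B peak and 57.8% a POL2 peak at this distance, and 70.2% and 78.5% of those above 1 FPKM. Near Krt8 and Krt18 the TAF9B peaks lay at chr15:101814737-101814916 (19.9 kb from the Krt8 start), chr15:101804149-101804495 (30.5 kb) and chr15:101896175-101896403 (37.6 kb from the Krt18 start). The POL2 peak nearest to Krt18, chr15:101903777-101905100, was 45.8 kb from its start. Krt7, Krt19 and Tfap2c had neither kind of peak within 50 kb.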

How the data were processed

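Poly-A RNA-seq of 11 libraries and ChIP-seq peaks of TAF9B and POL2 were analysed. The authors mapped RNA-seq reads against RefSeq genes with TopHat, and the deposited FPKM values were made by them with Cuffdiff in 6 tables, each normalized by itself. The score of each peak is the deposited MACS score, given by the authors after mapping with Bowtie to mm9. Versions, options and strand settings are not given in the sources used here. The tables also hold the log2 ratios and p-values of the authors' own comparisons, which were not used. The IgG library was not used.

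The 9 genes and all gene lists were chosen with earlier results of these data known. Symbols were assigned through RefSeq accessions, and 320 of 23152 loci had none. No pseudocount was added for log2 ratios. A locus was counted when past 2-fold with either library above 1 FPKM, and loci with a failed Cuffdiff status were left out. A gene at 0 in 1 library has no ratio but is counted. With 1 library per condition, no test or error was computed. Starts of transcripts came from GENCODE M1 on mm9, in place of the RefSeq transcripts first planned, and were matched by symbol or synonym within 15 kb of the locus. A peak counted when its midpoint was within 500 bp of a start. Neighbours were loci within 100 kb.

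The genes named are the 9 in full, the other keratins above 1 FPKM in culture, the 2 highest and 2 lowest ratios at EB day 6 of each list, the 5 genes most like Krt8, the neighbours of Krt7, Krt8 and Krt18, and Taf9b. The values of 1 gene that this rule names are not reported here. The skin keratins of the spinal column, Pou5f1, Prl3d1 and Plet1os were named after their values were seen. Alternatives were a pseudocount of 1 FPKM, no filter, both libraries above 1 FPKM, centring on the median, 4-fold, another ES table, a 5 kb window and peaks above the median score. The counting was tested on simulated data. Python 3.11.15, numpy 2.4.6, pandas 2.3.3 and matplotlib 3.10.9 were used.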

Additional observations from a re-analysis of the deposited data

Results flagged for a closer look

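Krt19 and Cdx2 had ratios of opposite direction at different stages, each past 1.5-fold. For Krt19 the log2 ratio of the library labelled KO over that labelled WT was -0.76 in ES cells and 3.16 at EB day 4. For Cdx2 it was -1.89 at EB day 2, where both values were under 1 FPKM, and 2.35 at EB day 6. With 1 library per condition these differences between stages were not tested.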

How the results depend on the processing

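Of 76 recomputed counts of the 9 genes, 69 were within 1.5 times the reported count. Many of the 76 belong to results with a reported count of 0, which had little room to change. With a 4-fold line, genes higher in the library labelled KO numbered 0 in place of 2 at EB day 2 and 1 in place of 5 in spinal column. With both libraries required above 1 FPKM, the spinal column count was 3 in place of 5, since Plet1 and Tfap2c were under 1 FPKM in the library labelled WT. Without a filter on low values, 1 gene in place of 0 was lower at EB day 2 (Cdx2) and 1 in place of 0 was higher from ES cells to spinal cord (Elf5). With a pseudocount of 1 FPKM, 0 genes in place of 1 were higher from day 2 to day 4 in the libraries labelled WT. With a 5 kb window, 1 gene in place of 0 had a TAF9B peak (Gata3). None of the 83 single log2 ratios changed sign past 2-fold under a pseudocount or centring, and centring moved them by 0.26 at most. Centring moved 2 ratios of Krt18 in the libraries labelled WT across 2-fold, from -0.94 to -1.03 from day 2 to day 4 and from 1.02 to 0.92 from day 4 to day 6. The pseudocount moved 16 of the 83 by more than 1.5-fold, by up to 3.05 on the log2 scale (Plet1 from ES cells to spinal cord, -5.36 to -2.31), and left 5 no longer past 2-fold, namely Cdx2 at EB day 4 (1.99 to 0.74), Krt7 in spinal column (1.43 to 0.96), Gata3 and Cdx2 from day 2 to day 4 in the libraries labelled WT (2.67 to 0.96) and KO (2.38 to 0.81), and Krt18 from day 4 to day 6 in those labelled WT (1.02 to 0.99). Plet1 at EB day 4 went from 3.46 to 1.73 and, in the libraries labelled WT, from -3.68 to -1.91 from day 2 to day 4 and from 3.70 to 1.93 from day 4 to day 6, Cdx2 at EB day 6 from 2.35 to 1.44, and Plet1 and Tfap2c in spinal column from 1.88 to 1.01 and from 3.57 to 1.15. The number of reads behind values under 1 FPKM is unknown, and the single library of each condition limits every ratio. No paired analysis of replicates was possible because each group holds 1 library. The stages are different conditions and not replicates, and a fit of label with stage as the block was not made.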

Other observations

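Of 17 primitive and visceral endoderm genes, 11 were above 1 FPKM at EB day 4, with 4 past 2-fold higher and 2 lower in the library labelled KO (2 and 2 of the 8 above 1 FPKM in both), where 12.1% and 4.43% of all loci were, and the median log2 ratio was 0.05. At day 6 it was 5 higher and 0 lower of 11 (4 and 0 of the 10 above 1 FPKM in both libraries), with 9 ratios positive and 2 negative and a median of 0.99, where 10.5% of all loci were higher and the median was -0.0031. At day 6 Col4a1, a basement membrane collagen gene, stood at 13 FPKM labelled WT and 42.4 labelled KO and Pdgfra at 1.88 and 5.89, while Foxa2, a factor of endoderm and floor plate, stood at 3.80 and 2.22 and the laminin gene Lama1 at 4.93 and 4.72. Of the 3 mesothelium genes only Wt1 was above 1 FPKM at day 6 (1.90 and 1.51 FPKM).

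The genes closest in course to the other members, named after their values were seen, differed from those closest to Krt8. For Tfap2c they were led by Lefty1 (r = 0.989) and the germ cell gene Ddx4 (0.986), for Krt19 they included Perp (0.954), and for Plet1 they were led by Gsto1 (0.990), over the 8 cultured libraries and with no test.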
